A study of Mus musculus with 6 samples.

Results

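The circadian clock genes described here are Arntl, Clock, Per2, Per3, Cry1, Cry2, Nr1d1, Nr1d2, Dbp and Tef, 10 of the 54532 genes in the deposited count table. These genes were taken by gene symbol, and the list was chosen with earlier results of these data known. They were read in Kupffer cells, macrophages that reside in the liver, sorted from male mice. Trem2_KO mice lack the lipid-sensing macrophage receptor TREM2 and were compared with WT littermates, labelled control. Mice of both groups were 8 weeks old when they were put on a high fat diet for 8 weeks, and there were 3 libraries per group. The labels name no promoter, Cre driver or clone for the Trem2 allele, and do not tell whether the libraries come from different mice. All p-values are thus set by the spread of these libraries, which may be technical. The labels state neither the hour of harvest nor whether it was the same in both groups, and they give 1 diet length per group. A changed level, a shifted daily phase and a different hour of harvest thus cannot be told apart.

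The clock is a feedback loop of transcription factors that runs in nearly every cell, liver macrophages included. BMAL1 (encoded by Arntl) and CLOCK pair up, bind E-boxes and switch on the Per, Cry, Nr1d, Dbp and Tef genes. PER and CRY proteins then block the BMAL1 and CLOCK pair, and the REV-ERB receptors (Nr1d1 and Nr1d2) bind ROR elements and repress Arntl. DBP and TEF are PAR bZIP factors that carry the rhythm to output genes through D-boxes, and in liver the Arntl transcript is high when those of Dbp and Nr1d1 are low.

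Short stretches of the members' promoters are shown because they hold the letters by which these factors recognise each other's genes. RefSeq promoter windows (GRCm38.p6, 250 bases before to 50 after an annotated start) were found for 9 of the 10 members, 13 windows in all. Each line gives 30 bases on the strand of the gene, with the motif in capitals.
Arntl, chr7:113207529-113207558, plus strand: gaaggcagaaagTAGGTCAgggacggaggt
Cry1, chr10:85185107-85185136, minus strand: agaAACGTGaggtgccggtggtCACGTGgg
Nr1d1, chr11:98775388-98775417, minus strand: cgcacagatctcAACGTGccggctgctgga
Tef, chr15:81802534-81802563, plus strand: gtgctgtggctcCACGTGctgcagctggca
Tef, second start, chr15:81811264-81811293, plus strand: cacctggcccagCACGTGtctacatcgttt
Per3, chr4:151044852-151044881, minus strand: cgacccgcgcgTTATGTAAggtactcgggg
Per3, chr4:151044805-151044834, minus strand: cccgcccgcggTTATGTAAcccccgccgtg
The E-box CACGTG was searched on both strands and occurred in 3 of the 13 member windows, those of 2 of the 9 members, Cry1 and Tef. It occurred in 7.15% of all 32851 promoter windows. The E-box variant CACGTT reads AACGTG on the other strand. It occurred in 3 of the 13 member windows, those of 3 of the 9 members (Cry1, Cry2 and Nr1d1), and in 4.68% of all windows. TAGGTCA, the end of a ROR element, began 30 bases after the second annotated start of Arntl and occurred in 2.61% of all windows, while its other form, TGGGTCA, was in no member window and in 3.98% of all. The D-box TTATGTAA occurred 2 times in the Per3 window, 205 and 158 bases before the start, and in 0.938% of all windows, and the form TTACGTAA was in no member window and in 0.119% of all. The windows of Clock, Nr1d2 and Dbp held none of these letters, which says nothing of the DNA outside them.

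Total counts ran from 15799351 to 17135603 per library. Trem2 itself was read at 84.3 to 90.1 CPM (counts scaled to library size, here with TMM factors) in WT and at 14.5 to 17.4 CPM in Trem2_KO, in the direction of the labels in all 6 libraries. A gene was called where edgeR's quasi-likelihood test gave a Benjamini-Hochberg adjusted p under 0.05 over the 13776 genes tested. The Kupffer cell markers Clec4f (named outside the rule for named genes) and Cd5l stood at 12329 and 11231 CPM on average in WT. Of 15 Kupffer cell markers 12 were called lower and 0 higher, and their summed level was 60611 to 62339 CPM in WT and 53819 to 55011 CPM in Trem2_KO. Of 15 hepatocyte markers 8 were called lower and 2 higher, with sums of 1762 to 1837 and 1566 to 1577 CPM. Of 14 sinusoidal endothelial markers 11 were called higher and 1 lower, with sums of 2023 to 2039 and 1997 to 2012 CPM, and the lower one, Cdh5, was at 1257 CPM on average in WT. Among 8 monocyte markers there were 3 higher and 1 lower calls, with sums of 99.1 to 101 and 109 to 114 CPM. Clock genes are active in all of these cells, and the part of a changed cell makeup in the clock values was not tested. In bulk RNA, fewer cells of a type and less RNA per cell cannot be told apart.

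All 10 members were read in every library and passed the filter on low counts, from 94 to 112 reads per library for Cry2 up to 1415 to 1544 for Nr1d2. None lies on chromosome 17, which carries Trem2. Levels per length, in deposited FPKM (fragments scaled by gene length and library size), placed the REV-ERB gene Nr1d2 highest in WT at 17.6 ± 0.5 (SD, n = 3), followed by Tef at 12.5 ± 0.42 and Nr1d1 at 11.5 ± 0.336. The output gene Dbp followed at 5.59 ± 0.692 and the activator Clock at 4.595 ± 0.249 FPKM. The remaining order was Per2 at 2.60 ± 0.154, Cry1 at 2.55 ± 0.163, Arntl at 2.004 ± 0.0926, Per3 at 1.77 ± 0.0352 and Cry2 at 1.05 ± 0.0861 FPKM. In WT, Per2 and Cry1 were the only neighbours in this order whose libraries overlapped. In Trem2_KO the order changed at 2 places. Clock, at 5.20 ± 0.196, stood above Dbp, at 4.09 ± 0.23 FPKM (SD, n = 3), with no overlap between them. Arntl, at 2.49 ± 0.216 FPKM, overlapped both Cry1 at 2.52 ± 0.292 and Per2 at 2.42 ± 0.115 FPKM.

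**Figure D1:**
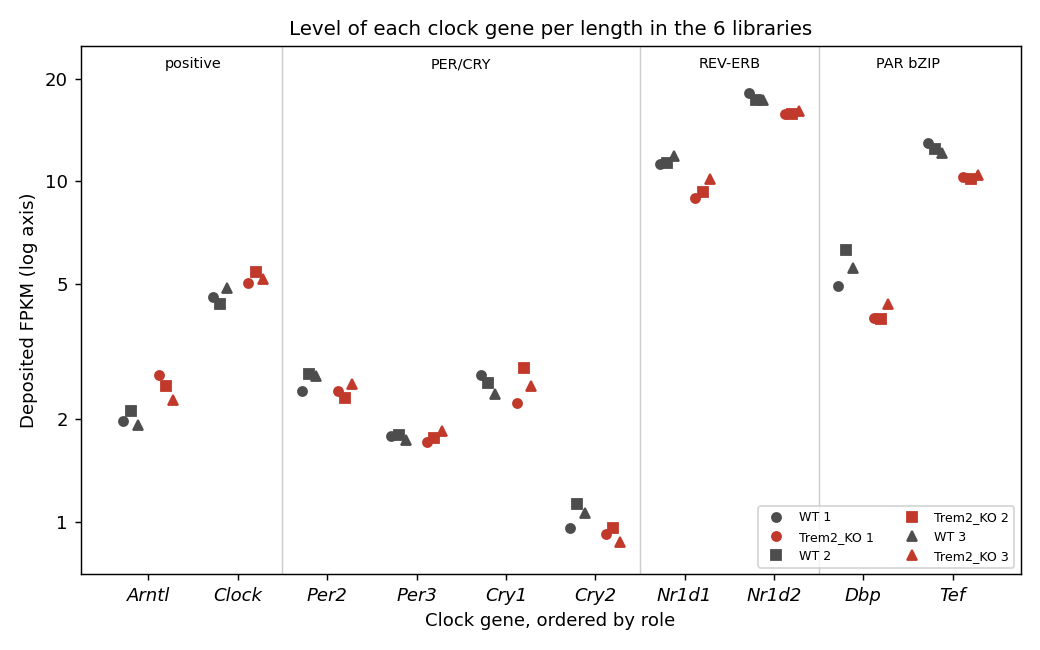
Deposited FPKM (log axis) of each clock gene in the 3 WT (grey) and 3 Trem2_KO (red) libraries, with 1 marker shape per replicate number, ordered by role. The red points of Arntl and Clock lie above the grey ones, and those of Nr1d1, Nr1d2, Dbp and Tef lie below. Those of Per2, Per3 and Cry1 overlap the grey ones. For Cry2 the highest red point, at 0.955 FPKM, lies just below the lowest grey one, at 0.956 FPKM.

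The activator transcripts were higher and the REV-ERB and PAR bZIP transcripts lower in Trem2_KO, while none of the 4 Per and Cry members was called. Of the 10 members, 2 were called higher (Arntl and Clock) and 4 lower (Nr1d1, Nr1d2, Dbp and Tef), against a background of 30.4% of all tested genes called, 15.3% higher and 15.1% lower. For the same 6 members the 3 WT and 3 Trem2_KO libraries did not overlap in CPM, which was the case for 41.6% of all tested genes, 20.9% higher and 20.7% lower. The changes were small. The median absolute log2 change of the members was 0.19, beside 0.16 over all tested genes, and the widest, that of Dbp, exceeded 85.4% of tested genes in size.

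Arntl encodes BMAL1, the activator without which the loop stops. It was read at 14.9, 15.9 and 14.6 CPM in the WT libraries and 20.5, 19.0 and 17.2 CPM in the knockouts. All knockout libraries lay above all WT libraries, and Trem2_KO 3 lay closest to them. Arntl rose by 0.32 on the log2 scale (SE 0.0933, n = 3 per group, edgeR adjusted p = 0.00666), a rise of 24.7% with a 95% confidence interval of 9.50% to 42.0%. Clock encodes the partner of BMAL1 in the pair that binds E-boxes. It was read at 62.8, 60.2 and 67.1 CPM in the WT libraries and 69.5, 74.7 and 71.1 CPM in the knockouts. The groups were again apart, but the highest WT library came within 2.37 CPM of the lowest knockout library. Clock rose by 0.18 (SE 0.0513, n = 3 per group, edgeR adjusted p = 0.00544), or by 13.2% (5.41% to 21.6%). The call of Arntl was lost without Trem2_KO replicate 1 (adjusted p = 0.0665), that of Clock without WT replicate 2 (adjusted p = 0.057) or Trem2_KO replicate 2 (adjusted p = 0.0588). Both were lost with limma on log2(FPKM + 1), at adjusted p = 0.0601 for Arntl and 0.0955 for Clock.

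The REV-ERB receptors, heme-binding repressors of Arntl, moved opposite to it. Nr1d1, which encodes REV-ERB alpha, was read at 34.7, 35.0 and 36.7 CPM in the WT libraries and 27.7, 28.8 and 31.4 CPM in the knockouts. The libraries of the groups were separate, with Trem2_KO 3 the highest of the knockouts. Nr1d1 fell by 0.28 on the log2 scale (SE 0.0677, n = 3 per group, edgeR adjusted p = 0.00113), a change of -17.4% (95% confidence interval -24.8% to -9.25%). Its exons overlap those of Thra, a thyroid hormone receptor gene on the opposite strand, by 263 bases (8.55% of the Nr1d1 exons). Thra was not called (log2 change -0.04). Nr1d2, which encodes REV-ERB beta, was read at 98.6, 94.0 and 94.0 CPM in the WT libraries and 86.0, 85.9 and 87.7 CPM in the knockouts. The knockout libraries were close together and all below WT. Nr1d2 fell by 0.14 (SE 0.0441, n = 3 per group, edgeR adjusted p = 0.00973), a change of -9.47% (-14.9% to -3.75%), and without WT replicate 1 this call was lost (adjusted p = 0.0655).

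The PAR bZIP outputs fell, Dbp most of all members. Dbp, the albumin D-box binding protein, was read at 14.8, 18.9 and 16.7 CPM in the WT libraries and 12.0, 11.9 and 13.1 CPM in the knockouts. The WT libraries spread more widely than the knockouts, and WT 1 lay nearest to them. Dbp fell by 0.45 on the log2 scale (SE 0.103, n = 3 per group, edgeR adjusted p = 0.000571), a change of -26.6% (95% confidence interval -36.5% to -15.3%). Dbp shares 539 bases, 18% of its exons, with Sphk2, a sphingosine kinase gene on the opposite strand. Sphk2 was read 850 to 1151 times per library, against 196 to 296 reads for Dbp, and was itself called lower by 0.37 (edgeR adjusted p = 1.73e-07). No label tells how reads in the shared part were assigned, and the part of Sphk2 reads in the Dbp value was not tested. Tef, the thyrotroph embryonic factor, was read at 102, 98.5 and 95.7 CPM in the WT libraries and 81.5, 80.6 and 82.8 CPM in the knockouts. The knockout libraries lay within 2.18 CPM of each other and well below WT. Tef fell by 0.27 (SE 0.0445, n = 3 per group, edgeR adjusted p = 1.75e-06), a change of -17.3% (-22.3% to -12.1%), and with 1328 to 1599 reads per library it had the smallest p of the members. Of its exons 2.45% are shared with an antisense gene that was read 2 times in all.

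In a further setting the biological coefficient of variation was set to 0.1 for every gene, where the estimated common value was 0.0378. A likelihood ratio test there took the place of the quasi-likelihood test, and only Dbp of the 10 members was called. This setting was chosen after the data were seen. The estimated value measures how alike these libraries are, and the labels do not say whether they are separate animals.

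The PER and CRY members, the repressors that close the loop, overlapped between the groups in CPM. Per2, which takes part in daily and hormonal resetting of the clock, was read at 14.2, 15.9 and 15.7 CPM in the WT libraries and 14.3, 13.6 and 14.9 CPM in the knockouts. The log2 change of Per2 was -0.10 (SE 0.0985, edgeR adjusted p = 0.489), with an interval of -18.6% to 7.07%. Per3, a PER gene that the loop can run without, was at 17.2, 17.4 and 16.7 CPM in the WT libraries and 16.5, 17.1 and 17.9 CPM in the knockouts, the closest match of all members. Its log2 change of 0.0044 (edgeR adjusted p = 0.978) had an interval of -11.5% to 13.7%, and its sign turned in some settings. CRY proteins bind the activator pair and silence it. Cry1, with an E-box and an E-box variant in its promoter stretch above, was at 9.07, 8.57 and 7.99 CPM in the WT libraries and 7.52, 9.47 and 8.41 CPM in the knockouts. The knockout libraries held both the lowest and the highest value. Its log2 change was -0.01 (edgeR adjusted p = 0.951), with an interval of -17.3% to 18.5%. Cry2 was at 6.07, 7.16 and 6.71 CPM in the WT libraries and 5.84, 6.07 and 5.53 CPM in the knockouts. Here the groups overlapped by a single library in CPM, and in FPKM they narrowly did not. The log2 change of -0.19 (SE 0.146, edgeR adjusted p = 0.345) had an interval of -28.6% to 7.19%. Counting error alone is 10.3% of the value at the 94 reads of the lowest Cry2 library and 8.94% at the 125 reads of the lowest Cry1 library, and 4.67% of the Cry2 exons are shared with an antisense gene that had 14 reads in all. The intervals of these 4 genes reach changes as large as those of Clock and Nr1d2 in at least 1 direction.

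**Figure D2:**
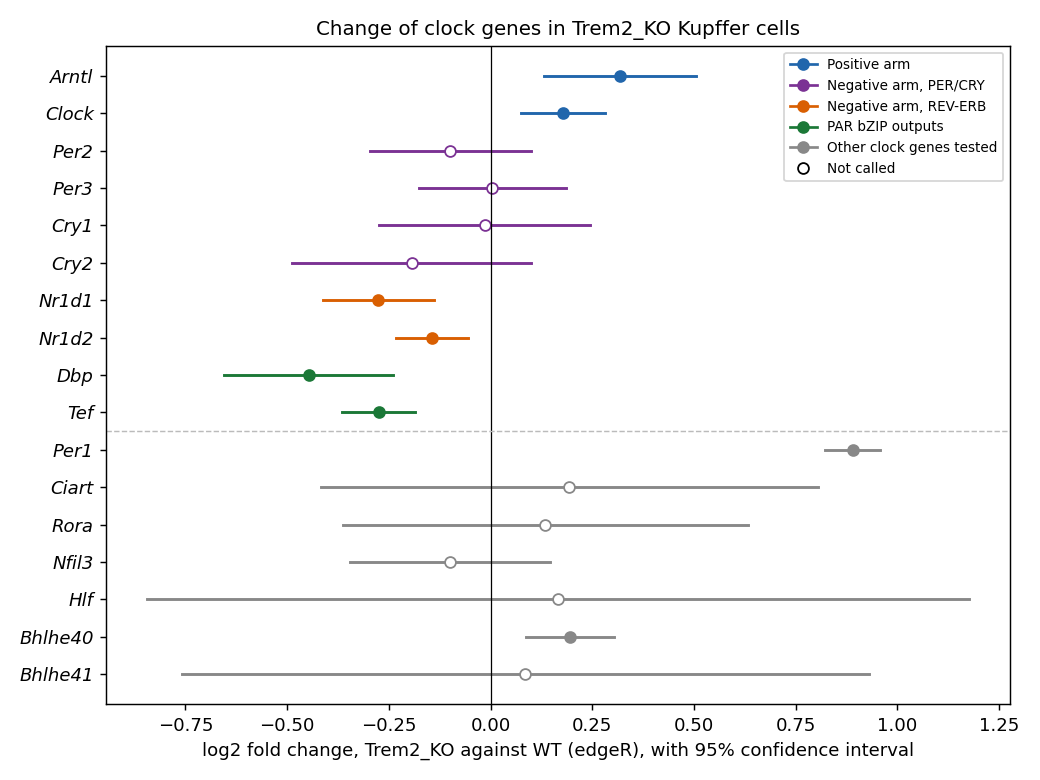
Log2 fold change between Trem2_KO and WT (points) with its 95% confidence interval (lines) for the 10 members, coloured by role, and below the dashed line for the 7 other clock genes that could be tested. Filled points were called. Arntl and Clock lie above 0, the REV-ERB and PAR bZIP genes below, and Per1 stands apart at 0.89.

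Ratios of genes within a library do not depend on how libraries are scaled, and they set the arms against each other. The mean log2 count per kilobase of Arntl and Clock, minus that of Dbp and Tef, was -1.41, -1.55 and -1.42 in WT and -0.79, -0.78 and -0.98 in Trem2_KO. The activators thus gained 0.61 on the outputs, the widest of the differences between arms, and no knockout library came near a WT one. Against the REV-ERB genes the activators stood at -2.25, -2.21 and -2.23 in WT and at -1.69, -1.72 and -1.90 in Trem2_KO, a difference of 0.46. Against the PER and CRY genes they stood at 0.72, 0.65 and 0.73 in WT and at 1.11, 1.02 and 0.93 in Trem2_KO, a difference of 0.32. Per1 is not a member and is in none of these arms. It stood at 29.8 ± 1.28 FPKM in WT (SD, n = 3), above every member, and rose by 0.89 on the log2 scale. Ratios that include Per1 were not computed, so those with the PER and CRY genes hold for the 4 members only. With the negative arm taken as 1 group of 6 genes the difference was 0.37. The negative arm was not uniform. Its PER and CRY genes gained 0.13 on its REV-ERB genes and 0.28 on the outputs, and the REV-ERB genes gained 0.15 on the outputs. In each of these comparisons the 3 knockout libraries lay above the 3 WT libraries. For activators against the REV-ERB or PAR bZIP genes this follows from the single genes, whose groups were already apart in opposite directions. The gap was narrowest for PER and CRY against REV-ERB genes, with WT 2 at -2.86 and Trem2_KO 3 at -2.84. Since the arms were named with results of these data known, the ratios carry no test.

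**Figure D3:**
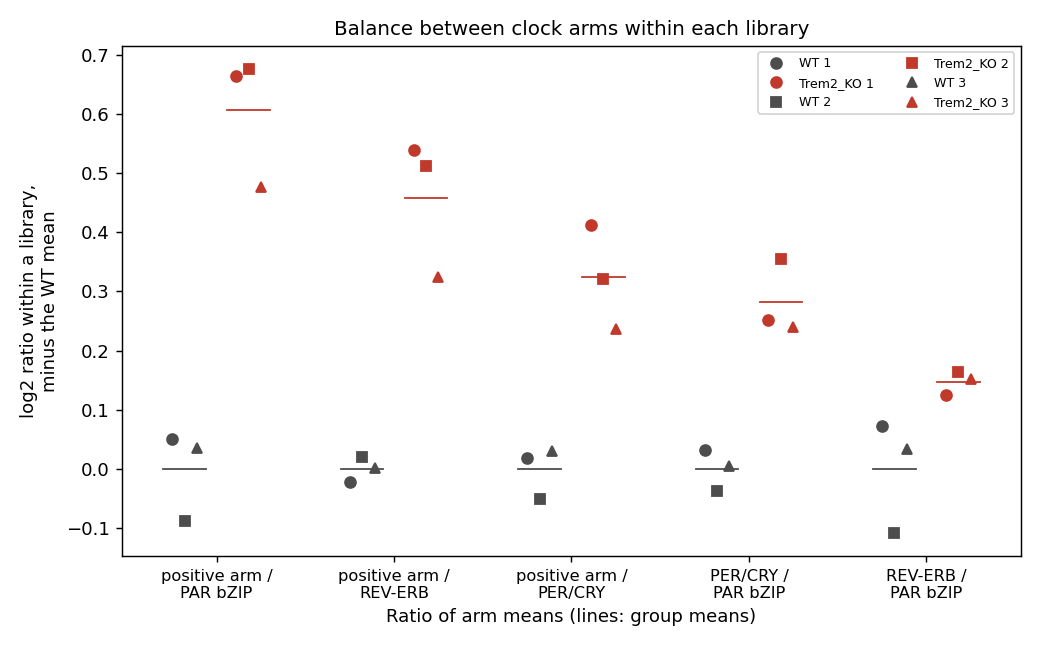
Log2 ratio between arm means within each library, with the WT mean of each ratio set to 0 (grey: WT, red: Trem2_KO, 1 shape per replicate number, lines: group means). All red points lie above all grey ones, and the gap is widest for activators against PAR bZIP outputs, 0.61, and 0.46 against the REV-ERB genes. Per1 is in none of the arms.

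Of the single pairs computed, Arntl against Dbp moved furthest, which follows from their being the widest rise and the widest fall of the members. This log2 ratio per length was -1.31, -1.58 and -1.53 in WT and -0.56, -0.65 and -0.94 in Trem2_KO, a difference of 0.76. Arntl against its repressor Nr1d1 went from -2.50, -2.43 and -2.62 to -1.73, -1.89 and -2.16, a difference of 0.59. Clock passed Dbp, with ratios of -0.11, -0.53 and -0.19 in WT and 0.34, 0.45 and 0.24 in Trem2_KO. The part of Sphk2 reads in the ratios with Dbp was not tested. Among the knockouts, Trem2_KO 3 lay closest to WT in 5 of the 6 called members, and for Clock it was Trem2_KO 1.

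Other transcription-level clock genes were led by Per1, a PER family member known for its rapid response to hormones. Per1 was read at 161, 176 and 169.7 CPM in the WT libraries and 313, 317 and 308 CPM in the knockouts. Every knockout library was far above every WT library. Per1 rose by 0.89 on the log2 scale (SE 0.0339, n = 3 per group, edgeR adjusted p = 1.65e-28), a rise of 85.3%, while its relatives Per2 and Per3 were not called. An E-box lies 166 bases before 1 of its starts, with the motif in capitals.
Per1, chr11:69098771-69098800, plus strand: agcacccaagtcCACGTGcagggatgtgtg
Bhlhe40, a basic helix-loop-helix repressor that competes at E-boxes, was read at 63.6, 54.9 and 60.9 CPM in the WT libraries and 65.3, 70.0 and 70.1 CPM in the knockouts. It rose by 0.20 (SE 0.0536, edgeR adjusted p = 0.00355), and its call was lost without WT replicate 2 (adjusted p = 0.073) and with limma on log2(FPKM + 1) (adjusted p = 0.0578). Of the 10 genes on this list 7 could be tested, and 2 were called higher and 0 lower, 28.6% beside the 30.4% of all genes. The D-box repressor Nfil3 was not called, at 10.5 ± 0.683 CPM in WT and 9.81 ± 1.52 CPM in Trem2_KO (SD, n = 3). Rora, Ciart, Hlf and Bhlhe41 were all under 3 CPM in every library, with log2 changes of 0.13, 0.19, 0.17 and 0.09, and none was called. Npas2, Arntl2 and Rorb had at most 3 reads in any library and were not tested.

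Among genes that modify clock proteins, 28 of 29 could be tested, with 7 called higher and 1 lower, 28.6% beside the 30.4% of all genes, and a median log2 change of 0.07. Those with the smallest p were Huwe1, a ubiquitin ligase, at 0.33, the histone methyltransferase gene Kmt2a at 0.37, Ncor1, the corepressor through which REV-ERB acts, at 0.30, and the acetyltransferase gene Ep300 at 0.23. Ncor1 went from 156 ± 7.06 to 192 ± 4.55 CPM (SD, n = 3). The kinase genes Csnk1d and Csnk1e, which mark PER proteins for decay, were at -0.04 and 0.08 and were not called. The single lower gene was Timeless, at -0.56, also a replication fork gene. The last 3 genes were chosen after their values were seen.

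Clock-controlled outputs other than Dbp and Tef rose or were not called. Of 16 genes 15 could be tested, and 7 were called higher and 0 lower, 46.7% beside the 30.4% of all genes, with a median log2 change of 0.27. Klf9, a transcription factor gene, rose from 38.4 ± 2.91 to 96.3 ± 1.57 CPM (SD, n = 3), or by 1.33 on the log2 scale. Noct, which encodes nocturnin, rose by 0.73, the cell cycle inhibitor gene Cdkn1a by 0.93, and Nampt, the rate-limiting enzyme of NAD salvage, by 0.27. Cdkn1a is the 1 member of this list on chromosome 17, and without it 6 of 14 were called higher. None of the 15 was called in the direction of Dbp and Tef. G6pc, the glucose-6-phosphatase gene, chosen after its values were seen, was at 7.09, 7.03 and 6.65 CPM in WT and 5.95, 5.28 and 5.001 CPM in Trem2_KO, without overlap, and its log2 change of -0.35 missed the threshold (edgeR adjusted p = 0.0614). Of 6 genes known as targets of REV-ERB repression in macrophages, 3 were called higher, 1 lower and 2 were not called. This is 66.7% called, beside the 30.4% of all genes. Mmp9, a gelatinase, rose from 6.92 ± 0.629 to 17.8 ± 1.43 CPM and the chemokine receptor Cx3cr1 from 5.52 ± 0.576 to 15.1 ± 1.19 CPM (SD, n = 3), by 1.36 and 1.46 on the log2 scale. The inflammasome gene Nlrp3 rose by 0.23, and the chemokine gene Ccl2 fell by 0.68. Cx3cr1 is also a monocyte marker, and the monocyte marker Ccr2 rose by 1.45 in the same libraries. Of the 8 monocyte markers, Cx3cr1 and Ccr2 among them, 3 were called higher, 1 lower and 4 were not called. The part of monocytes in the Cx3cr1 value was not tested.

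Glucocorticoids and body temperature are signals by which the body sets peripheral clocks, and genes that respond to them changed in these libraries as well. Their lists, like those above, were chosen with earlier results of these data known, so shares set beside all genes carry no test. All 10 glucocorticoid responsive genes were called higher, beside 15.3% of all tested genes, with a median log2 change of 0.71. When those on chromosome 17 were left out, 7 of 7 were called higher. Fkbp5, which lies on chromosome 17, encodes a chaperone of the glucocorticoid receptor. It rose from 199 ± 4.4 to 454 ± 8.31 CPM (SD, n = 3), or by 1.19, and Tsc22d3 rose by 0.53. Per1, Klf9 and Cdkn1a, named above, belong to this list too. Of 9 temperature responsive genes 8 were called lower and 1 higher, beside 15.1% and 15.3% of all tested genes. Their median was -0.67, and without those on chromosome 17 the calls were 5 lower and 1 higher of 6. The list joins heat-induced genes with a pair of cold-induced ones, which went opposite ways: Cirbp rose by 0.30 on the log2 scale and Rbm3 fell by 0.17. Both were named after their values were seen. Hsph1 fell by 1.13 and Hsp90aa1 by 0.75 on the log2 scale, and Hspa1b and Hspa1a, near-identical copies whose reads cannot be fully separated, by 1.08 and 0.67. The part of these signals in the values of the 10 clock genes was not tested.

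**Figure D4:**
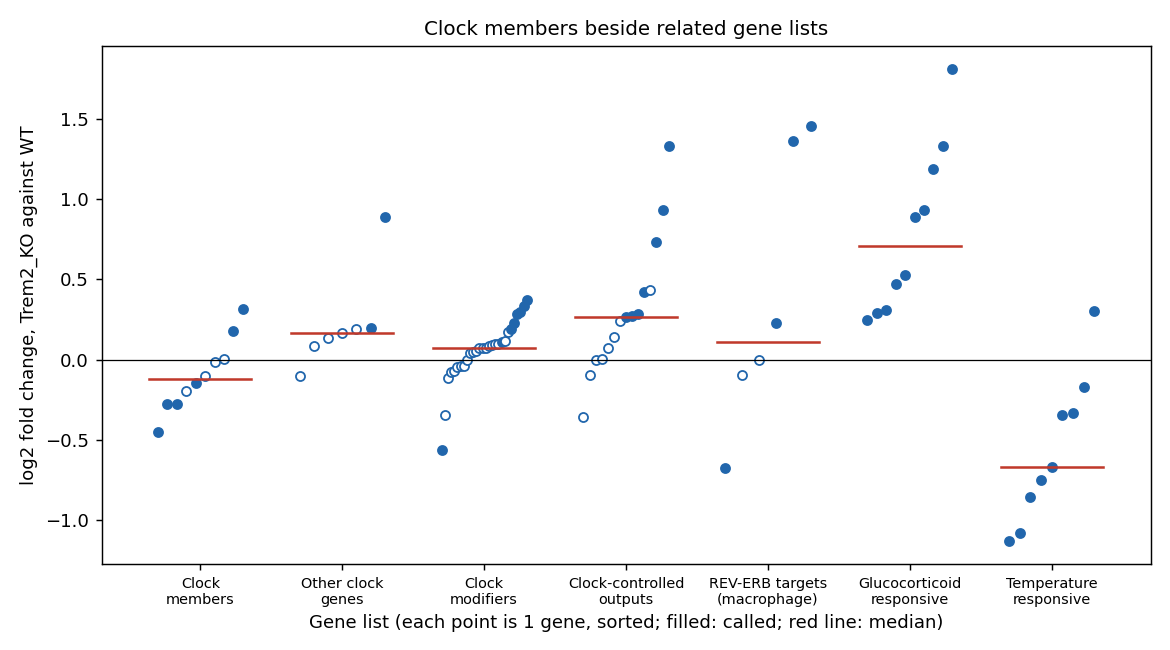
Log2 fold change between Trem2_KO and WT for each tested gene (points, sorted within a list, filled where called) of the 10 clock members and 6 related lists, with the median of each list in red. The clock members lie between -0.45 and 0.32, the 10 glucocorticoid responsive genes all lie above 0, and 8 of the 9 temperature responsive genes lie below 0.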

How the data were processed

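RNA of sorted Kupffer cells was measured in 3 WT and 3 Trem2_KO libraries, grouped by sample title. The deposited table holds whole-number read counts per gene with no normalization, and a second deposited table holds FPKM made by the authors from gene length and a library constant whose origin the labels leave out. Per the submitters' processing notes, the tools were featureCounts 1.5.0-p3, HISAT2 2.0.5 and DESeq2 1.16.1, and the builds mm10 and GRCm38. Strand setting and handling of reads in overlapping genes: not given in the sources used here.

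The counts were fitted by edgeR 4.0.16 in R 4.3.3 (filterByExpr, TMM, quasi-likelihood test with robust dispersion, genotype as the only term), and p-values were Benjamini-Hochberg adjusted over 13776 genes, which held 99.85% to 99.87% of the reads of each library. Standard errors and 95% confidence intervals follow from the quasi-F statistic. CPM are TMM-scaled. Counting error covers reads only, as reads that carry no molecular identifiers need not be independent, and a count of 3, the limit that a count of 0 allows, is 0.175 to 0.19 CPM.

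Members, lists and the named-gene rule (Trem2, all members, all other transcription-level clock genes, and up to 4 genes of each other list by smallest p) were chosen with earlier results of these data known. A few list genes are not reported here and were left out of the counts. Lists are described by counts and medians without a test. Counts for these 13776 genes were simulated in 5 draws, with 200 genes changed in each and the dispersion estimated from these libraries. The test recovered 12% of genes changed 1.1-fold, 48.4% at 1.25-fold and 73.2% at 1.5-fold, and 3.05% of its calls were false. In the data 30.4% of genes were called, so these shares need not hold there. The false share takes the spread of these libraries as given. Exon overlaps were taken from GENCODE M21, whose exonic lengths equal the deposited lengths of 10 of 10 members. Promoter sequences are those of RefSeq on GRCm38.p6. Alternatives were other scalings and filters, DESeq2 1.42.0, limma 3.58.1 (voom, and log2 FPKM with a pseudocount of 1 or 0.1), a replicate block and the omission of each library. A fixed biological coefficient of variation, with edgeR's likelihood ratio test, was added after the data were seen.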

Additional observations from a re-analysis of the deposited data

How the results depend on the processing

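The falls of Nr1d1, Dbp and Tef kept their call under all 10 planned settings that used every library and without each library in turn. Under these 10 settings Dbp ranged from -0.46 to -0.37 on the log2 scale, Tef from -0.29 to -0.24 and Nr1d1 from -0.29 to -0.25. With limma on log2(FPKM + 1) no member was called higher (0 of 10), since Arntl (0.22, adjusted p = 0.0601) and Clock (0.15, adjusted p = 0.0955) were lost. Of the 50 tested genes in the lists of other core clock genes, modifiers and outputs together, 16 were called higher and 1 lower, and in this fit 2 were lower. With a pseudocount of 0.1 again 0 were called higher, Arntl at 0.30 (adjusted p = 0.0609) and Clock at 0.17 (adjusted p = 0.096), and 2 of the 50 were lower. The cause was not tested. Cry1 turned to 0.016 with total counts in place of TMM and Per3 to -0.0088 with no filter, neither being called in any setting. At a fixed biological coefficient of variation of 0.1, 938 genes were called higher and 549 lower, of the members 0 higher and 1 lower, and of the 50 genes 7 higher. There Arntl (0.32), Clock (0.18), Nr1d1 (-0.28), Nr1d2 (-0.14) and Tef (-0.27) were not called, at likelihood ratio test adjusted p = 0.13, 0.417, 0.169, 0.535 and 0.142.

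Without 1 library at a time, the members called higher ran from 1 to 2 and those called lower from 3 to 4. Arntl ranged from 0.26 to 0.38, Clock from 0.14 to 0.22, Nr1d2 from -0.16 to -0.12, Cry1 from -0.10 to 0.066 and Per3 from -0.026 to 0.031. Ciart ranged from -0.0082 to 0.49, Hlf from -0.60 to 0.49 and Bhlhe41 from -0.11 to 0.33 in the same fits. The ratio of activators to PAR bZIP outputs differed by 0.56 to 0.67. An arm left with 2 libraries shares its spread with the other.

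Same-numbered libraries deviated together only weakly (r = 0.0455, 0.0807 and 0.0708 over 8417 genes with at least 10 CPM). All of these lay above the r of differently numbered libraries, which ran from -0.0855 to 0.0161. Since every r was small, the numbers were not taken as pairs in the main fit. With the replicate block 4230 genes were called in place of 4182, and all 6 called members kept their call. With total counts 61.3% of calls were higher, against 50.3%, and the median over all genes was 0.03. Depth limits the least abundant members, Cry1 and Cry2, most.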

Other observations

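Markers of other cells beyond those given above were scarce or mixed. Of 9 neutrophil markers 4 were tested, with 1 called lower and 0 higher, and Ly6g, chosen after its value was seen, had 0 reads in every library. Of 8 B cell markers 7 were tested, with 3 called lower and 0 higher, led by Ighm, which fell by 0.82 on the log2 scale. Among 4 tested T and NK cell markers 1 was higher and 0 lower. Dendritic cell markers gave 1 higher and 1 lower of 6, stellate cell markers 1 higher and 0 lower of 9, and erythroid and platelet markers 1 higher and 0 lower of 7. None of 5 cholangiocyte markers passed the filter.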
